A study of Homo sapiens with 39 samples.

Results

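The 36 protein-coding histone genes among the 15808 genes of the counts table were followed across 39 RNA-seq libraries. They were chosen by symbol: every gene whose symbol begins with H1-, H2AC, H2BC, H3C, H4C, H2AZ, H2AX, H2AJ, H3-3 or MACROH2A, with 1 pseudogene and 2 non-coding RNAs of the same prefixes left out. The rule uses no measured value, but it was chosen with earlier results of these data known. The clustered histone genes numbered 27 (3 of linker histone H1, 4 of H2A, 11 of H2B, 4 of H3 and 5 of H4), and the other 9 were histone variant genes. Of the clustered genes, 22 lie on chromosome 6 between positions 26055787 and 27893106, 4 on chromosome 1 and 1, H4C16, on chromosome 12 (GRCh38, GENCODE 29).

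The libraries came from 4 human B cell lymphoma lines grown in culture, DOHH2, OCILy10, TMD8 and Toledo. DOHH2 and Toledo are known as germinal centre type lines, OCILy10 and TMD8 as activated B cell type lines. In each line 3 libraries had the vehicle DMSO, 3 had NEO2734 and 3 had OTX015, and OCILy10 had 3 more with CB103, which makes 13 groups of 3, all treated for 6 h per the samples' own labels. OTX015 (birabresib) inhibits the bromodomains of the BET proteins, NEO2734 inhibits those of the BET proteins and of CBP/p300, and CB103 inhibits the Notch transcription complex. Each line stands for 1 patient's tumour and each group for that line alone. Doses are not among the labels, and the compounds are therefore set side by side as used, without known matching of dose. Nor do the labels tell separate cultures from repeated preparations of 1 culture, so each p-value below measures the spread between libraries, which may be technical.

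Histones package DNA: H2A, H2B, H3 and H4 form the core of the nucleosome and H1 binds the linker DNA. The clustered genes carry no introns in their main transcript, are transcribed mostly in S phase and end in a conserved stem-loop in place of a poly(A) tail. SLBP binds that stem-loop for processing and translation. The variant genes (H2A.Z, H2A.X, H3.3, macroH2A, H1.10 and H2A.J, among others) are expressed through the cell cycle and mostly give polyadenylated mRNA. Some clustered genes also give longer polyadenylated transcripts, and a library kit that captures poly(A) tails sees mainly those. The labels named an Illumina TruSeq RNA kit and did not say how mRNA was selected, so the share of stem-loop ended transcripts in these counts was not measured.

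The annotated 3′ ends of the genes show this feature. A match to the stem-loop consensus was found in the annotated 3′ UTR of 18 of the 27 clustered genes, and of 27 (0.217%) of the 12437 genes of the table with an annotated 3′ UTR. In 16 of the 18 the annotated transcript ran on for at least 100 bases beyond the loop. The stem-loops below stand for an H2A, H2B, H3 and H4 gene on which the results turn and for the 1 variant gene with a match, H2AX. The arms of the stem are in capitals.
H2AC6: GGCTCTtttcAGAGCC
H2BC21: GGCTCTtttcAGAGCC
H2BC5: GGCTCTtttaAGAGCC
H3C10: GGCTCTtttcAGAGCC
H4C16: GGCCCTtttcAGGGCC
H2AX: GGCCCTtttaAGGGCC
The annotated transcript went on for 1729 bases after the loop in H2BC21, 1510 in H4C16, 1128 in H2AC6, 1044 in H2AX, 769 in H3C10 and 39 in H2BC5. These lengths are for transcripts with the loop, and H2BC5 has another annotated transcript with a 3′ UTR of 384 bases. The gene models of H1-2, H1-3, H2BC12, H3C4, H3C12 and H4C4 held no 3′ UTR, so no loop could be sought there.

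Library totals ran from 1000281 to 11668542 counts and fell into 15 deep libraries (at least 6670250 counts) and 24 shallow ones (at most 3420458). Every group held 1 deep library, except that OCILy10 DMSO and OCILy10 NEO2734 held 2. CPM is a count relative to the TMM-scaled library total. The 3 monocyte markers in the table (LYZ, CSF1R, ITGAM) summed to at most 6.09 CPM. The 3 T cell markers in the table (CD2, CD5 and TRAC) summed to at most 120 CPM, in OCILy10. Of the libraries, 3 held genes of another line. In Toledo DMSO replicate 2 the 70 genes private to OCILy10 stood at a median of 87.0% of their OCILy10 level. That library was nevertheless kept in the sums, the means and the main fit, and its level of Toledo genes is not given here. In OCILy10 CB103 replicate 2 the 32 genes private to Toledo stood at 30.9%, and in DOHH2 NEO2734 replicate 3 the OCILy10 genes at 8.80%, against at most 2.13% in the other 36 libraries. Where results without these libraries are given, some are values and others only a count of called genes or the loss of a call.

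Of the 36 histone genes, 28 (20 clustered, 8 variant) passed the low-count filter and were tested among 12814 genes. The other 8 did not. The 7 clustered genes among them (H1-3, H1-4, H2AC8, H2BC9, H2BC26, H3C12 and H4C4) reached 2.83 to 5.44 CPM in their highest library. A gene can pass the filter through its treated libraries alone, so shares of the tested genes are descriptions. For a group without a single count, an upper limit of 3 counts over the group applies, which is 0.150 to 0.273 CPM and covers counting error only.

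With all 27 clustered genes added up, tested or not, the summed level was higher with NEO2734 and with OTX015 than with DMSO in every line, and the 3 and 3 libraries never overlapped. In DOHH2 the sum was 54.4 ± 31.4 CPM with DMSO, 340 ± 40.4 with NEO2734 and 244 ± 10.3 with OTX015 (SD, n = 3). In OCILy10 it was 63.9 ± 14.5, 253 ± 148 and 187 ± 119 CPM. In TMD8 it was 459 ± 101, 1522 ± 154 and 1314 ± 167 CPM, and in Toledo 39.7 ± 7.24, 240 ± 95.5 and 192 ± 80.6 CPM. The ratio of the means to DMSO lay between 3.32 (TMD8) and 6.25 (DOHH2) with NEO2734 and between 2.86 (TMD8) and 4.85 (Toledo) with OTX015. CB103 in OCILy10 gave 70.1 ± 15.2 CPM. Genes of high level weigh most in such sums. In DOHH2 NEO2734 replicate 2 the H2A genes gave 224 of 355 CPM. In OCILy10 NEO2734 the sum was 177 and 157 CPM in the deep libraries and 423 CPM in the shallow one. The H2A genes gave 40.5, 41.0 and 246 CPM of these. The sums of the 9 variant genes overlapped between the groups: with DMSO, NEO2734 and OTX015 they were 1122, 1630 and 1390 CPM in DOHH2 and 1493, 1995 and 1807 CPM in Toledo.

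**Figure D1:**
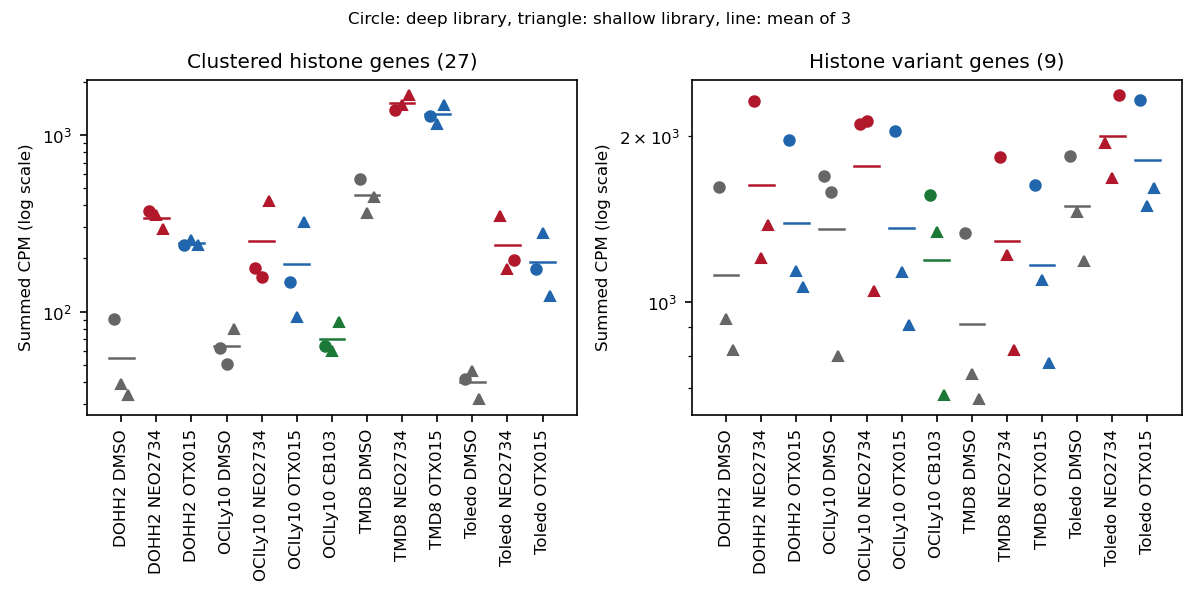
Summed level of the 27 clustered (left) and the 9 variant histone genes (right) in each library, in CPM on a log axis. Circles are deep and triangles shallow libraries, and lines are the mean of 3. In each line every NEO2734 and OTX015 library lies above the DMSO libraries on the left, where DMSO runs from 31.7 to 565 CPM, while the groups overlap on the right.

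NEO2734 raised clustered histone genes of every class. In the mean over the 4 lines, 13 of the 20 tested clustered genes and 2 of the 8 tested variant genes were higher and 0 were lower (edgeR quasi-likelihood test, Benjamini-Hochberg adjusted p under 0.05), where 9.29% of all genes tested were called higher and 11.2% lower. Without the 3 libraries that hold genes of another line 17 histone genes were called. No share of all genes is given beside this or later counts from fits without some libraries, so those counts are descriptions. The median log2 change was 2.06 over the clustered genes, 0.33 over the variants and -0.02 over all genes tested. H3C8 and H2AC25 had groups at 0 counts, and the clustered median was also 2.06 without them and 2.01 with H3C8 at its bound. By class, 7 of 9 tested H2B genes rose, 2 of 3 H2A, 2 of 3 H3, 1 of 4 H4 and the 1 tested H1 gene.

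H2BC21, an H2B gene on chromosome 1 (149884459 to 149886652), had the lowest p. Its DMSO libraries held 2.15, 0 and 0.647 CPM in DOHH2, 7.24, 2.74 and 0.502 in OCILy10, 35.6, 7.20 and 12.0 in TMD8, and 8.37, 2.73 and 0 in Toledo. Its NEO2734 libraries held 31.7, 15.6 and 15.4 CPM in DOHH2, 27.7, 18.6 and 33.0 in OCILy10, 227, 63.9 and 114 in TMD8, and 31.8, 16.9 and 52.2 in Toledo. All 3 NEO2734 libraries lay above all 3 DMSO libraries in each of the 4 lines. The mean change was 3.13 ± 0.42 (log2, SE; 8.77-fold; adjusted p = 3.73e-06), and 4.49 with the shallow libraries alone.

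H2BC5 on chromosome 6 (26158146 to 26171349) held 3.17, 3.09 and 2.59 CPM with DMSO and 17.3, 31.1 and 25.5 CPM with NEO2734 in DOHH2, and 2.68, 2.73 and 2.05 against 54.3, 18.0 and 33.5 CPM in Toledo. In TMD8 it held 25.4, 36.6 and 50.5 CPM against 85.2, 136 and 140 CPM. These 3 lines did not overlap. In OCILy10 they did: 2.34, 1.30 and 11.04 CPM against 9.84, 7.54 and 52.2 CPM, with the shallow library highest in both groups. The mean change was 2.71 ± 0.38 (adjusted p = 7.36e-06). H2BC18, H2BC11, H2BC8, H2BC4 and H2BC7 rose by 2.77 ± 0.44, 2.48 ± 0.41, 2.49 ± 0.62, 2.37 ± 0.48 and 2.12 ± 0.73, at lower levels. H2BC18 had a median of 1.21 CPM over the 12 DMSO libraries (range 0 to 5.77) and 8.25 CPM over the 12 NEO2734 libraries (2.25 to 49.7). The H2BC18 change was 3.92 with the shallow and 2.06 with the deep libraries alone. Its exons overlap FCGR1A on the opposite strand, and 13.9% of its 50-base stretches occur in other genes too. H2BC4, H2BC7 and H2BC8 held 1 to 3 counts in 1 or more DMSO groups, so their folds rest on few reads. The H2B genes H2BC12 (1.40 ± 0.54, adjusted p = 0.0650), of whose 50-base stretches 74.1% occur in other genes too, and H2BC15 (0.87 ± 0.43, adjusted p = 0.163) did not pass. Exons of H2BC15 overlap HIST1H2AK on the opposite strand and HIST1H2AL on the same strand.

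Of the H2A genes, H2AC6 on chromosome 6 (26124145 to 26139116) rose in a like manner. It held 6.01, 11.8 and 14.2 CPM with DMSO and 71.8, 215 and 129 with NEO2734 in DOHH2. In TMD8 it held 73.9, 208 and 144 against 279, 825 and 806 CPM, in Toledo 8.05, 8.47 and 11.3 against 135, 73.2 and 46.3 CPM, and in OCILy10 7.88, 3.74 and 39.7 against 33.8, 35.1 and 240 CPM. The groups overlapped in OCILy10 and in no other line, and the mean change was 2.96 ± 0.49 (7.79-fold; adjusted p = 5.83e-05). H2AC11 rose by 1.94 ± 0.36 (adjusted p = 0.000188), from a median of 1.70 CPM over the 12 DMSO libraries (0 to 9.97) to 6.14 CPM over the 12 NEO2734 libraries (0.563 to 31.6).

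Of the H3 genes, H3C10 rose by 2.01 ± 0.37 (adjusted p = 0.000198), with groups apart in all 4 lines. Its median was 1.19 CPM with DMSO (0 to 13.2) and 5.05 CPM with NEO2734 (1.87 to 48.6). H3C8 was called higher at a fitted 2.42 (adjusted p = 0.00431), but its DMSO libraries held 1 count in all in DOHH2 and 0 in Toledo, so this fitted value is no bound and has no finite SE, and the call was lost with the deep or the shallow libraries alone. H3C4 did not pass (1.56 ± 0.58, adjusted p = 0.0552; it passed under the replicate block, adjusted p = 0.0108, and without any 1 of 4 libraries), and every 50-base stretch of its transcript also occurs in another gene's transcript, so its counts are uncertain.

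Of the H4 genes, H4C16 rose by 1.37 ± 0.32 (adjusted p = 0.00261). It held 6.15, 3.32 and 7.21 CPM with DMSO and 30.1, 29.3 and 33.7 CPM with NEO2734 in TMD8, and groups were apart in DOHH2 and OCILy10 too. It was not called with the shallow libraries alone. In Toledo it held 0.316, 2.19 and 1.02 against 0, 1.69 and 0.927 CPM, which overlap. The 2.19 CPM came from the library that holds OCILy10 genes, without which the mean change over the lines was 1.67. H4C9 (2.37 ± 0.88, adjusted p = 0.0556; median 1.88 CPM with DMSO and 7.65 CPM with NEO2734), H4C8 (1.36 ± 0.54, adjusted p = 0.0771) and H4C3 (0.23 ± 0.57, adjusted p = 0.890) did not pass. Under the replicate block H4C9 passed (adjusted p = 0.00104), and it also passed without any 1 of 7 libraries. H4C9 was at 3.19 without OCILy10 DMSO replicate 3 and at 1.53 without OCILy10 NEO2734 replicate 3. H4C8 was at 1.91 and called without Toledo DMSO replicate 2, at 1.76 and called without DOHH2 DMSO replicate 1, and at 0.56 without Toledo NEO2734 replicate 3. H1-2, the 1 linker histone gene of the clusters with enough counts, rose by 1.43 ± 0.37 (adjusted p = 0.00622). Its median was 12.0 CPM with DMSO (4.26 to 301) and 36.3 CPM with NEO2734 (10.9 to 366), and its groups were apart in Toledo alone. With the deep libraries alone H1-2 was no longer called.

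Leaving out DOHH2 DMSO replicate 1, the 1 library of that group with counts of these genes, raised the mean NEO2734 change to 3.20 for H2AC11, 3.90 for H2BC18 and 3.02 for H3C10, which stayed called, and to 2.62 for H3C4, which gained a call. The size of the change of these genes in DOHH2 therefore rests on that library.

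**Figure D2:**
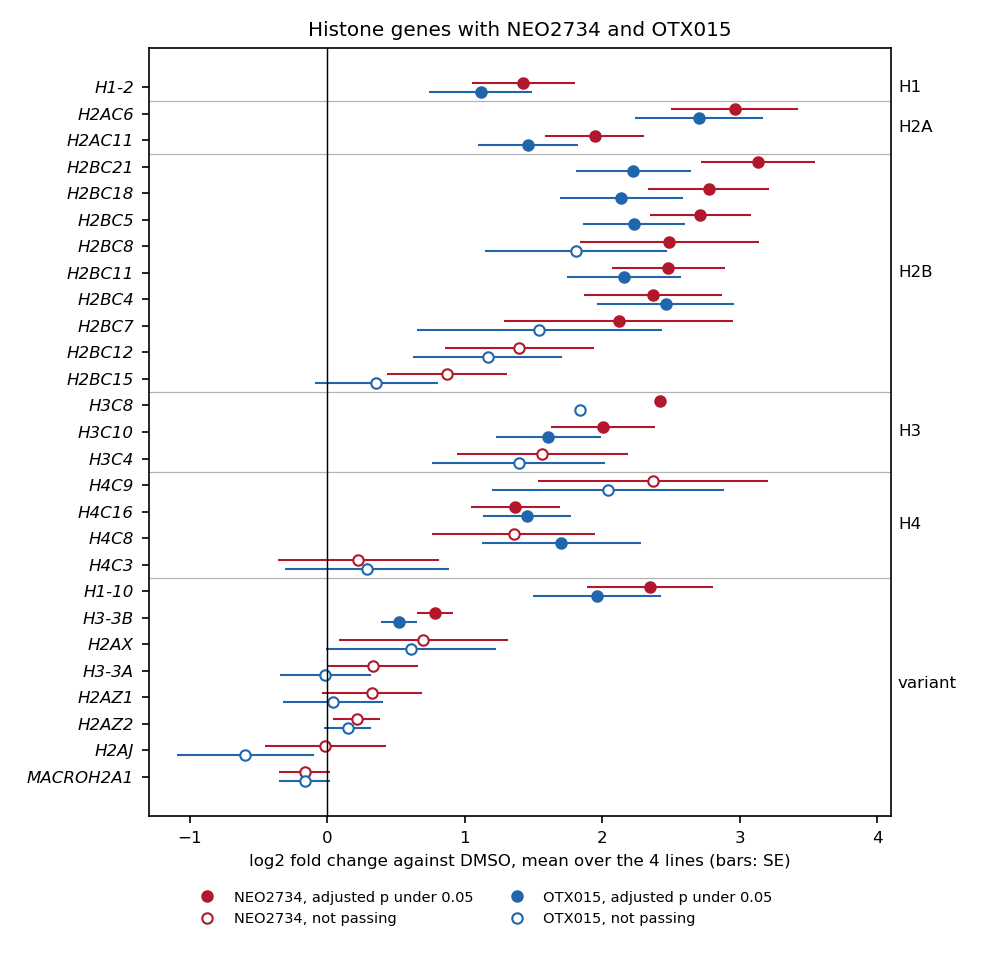
Log2 fold change of the tested histone genes against DMSO, as the mean over the 4 lines, for NEO2734 (red) and OTX015 (blue), with SE bars from the information matrix of the fit (none for H3C8, which has no finite SE). Filled points passed an adjusted p of 0.05. H2AC25, which had counts in Toledo but in 0 libraries of the other 3 lines with these treatments, is not drawn. The clustered genes lie right of 0 with a median of 2.06 for NEO2734, and of the variants H1-10 and H3-3B are filled.

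Among the variants, 2 rose. H3-3B, which encodes the replication-independent histone H3.3 and lies on chromosome 17 (75776434 to 75785893), was the second most abundant histone gene per kilobase of exon in the DMSO libraries of DOHH2, OCILy10 and Toledo, after H2AZ1. It held 431, 370 and 367 CPM with DMSO and 853, 618 and 653 with NEO2734 in DOHH2, 476, 509 and 303 against 807, 892 and 450 in OCILy10, 415, 307 and 338 against 742, 625 and 441 in TMD8, and 463, 510 and 412 against 882, 674 and 808 in Toledo. Groups were apart in every line except OCILy10, where the shallow library was lowest in both. The change was small and even, 0.78 ± 0.13 (1.72-fold; adjusted p = 6.34e-05). Its exons overlap UNK on the opposite strand, and the strandedness of the counts is not given in the sources used here.

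H1-10, a linker histone variant gene on chromosome 3 (129314771 to 129316277), rose by 2.35 ± 0.47 (5.08-fold; adjusted p = 0.000491). It held 17.7, 12.99 and 3.23 CPM with DMSO and 127, 24.9 and 109 with NEO2734 in DOHH2, 1.60, 4.03 and 0.502 against 8.72, 15.1 and 4.07 in OCILy10, 2.16, 2.22 and 1.92 against 3.63, 19.7 and 5.35 in TMD8, and 8.37, 10.1 and 8.19 against 94.0, 20.3 and 14.8 in Toledo. Groups were apart in all 4 lines, with a wide spread among the treated libraries. With the deep libraries alone the change was 1.61. An antisense RNA overlaps its exons, so reads of both may be counted together. The other gene of H3.3, H3-3A, was at 0.33 ± 0.33 (adjusted p = 0.579), the H2A.Z genes H2AZ1 and H2AZ2 at 0.32 ± 0.36 (adjusted p = 0.648) and 0.21 ± 0.17 (adjusted p = 0.459), and H2AX, the variant phosphorylated at DNA breaks, at 0.70 ± 0.61 (adjusted p = 0.510). MACROH2A1, the gene of a variant with a large extra domain, was at -0.16 ± 0.18 (adjusted p = 0.641) and H2AJ at -0.01 ± 0.44 (adjusted p = 1.00). Over the 12 DMSO and the 12 NEO2734 libraries the medians were 364 and 433 CPM for H2AZ1, 151 and 176 for H2AZ2, 221 and 197 for MACROH2A1, 13.2 and 24.96 for H2AX and 12.9 and 18.5 for H3-3A, with ranges that overlap throughout. Antisense or divergent RNAs of the table overlap exons of H2AZ1 and MACROH2A1 as well.

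**Figure D3:**
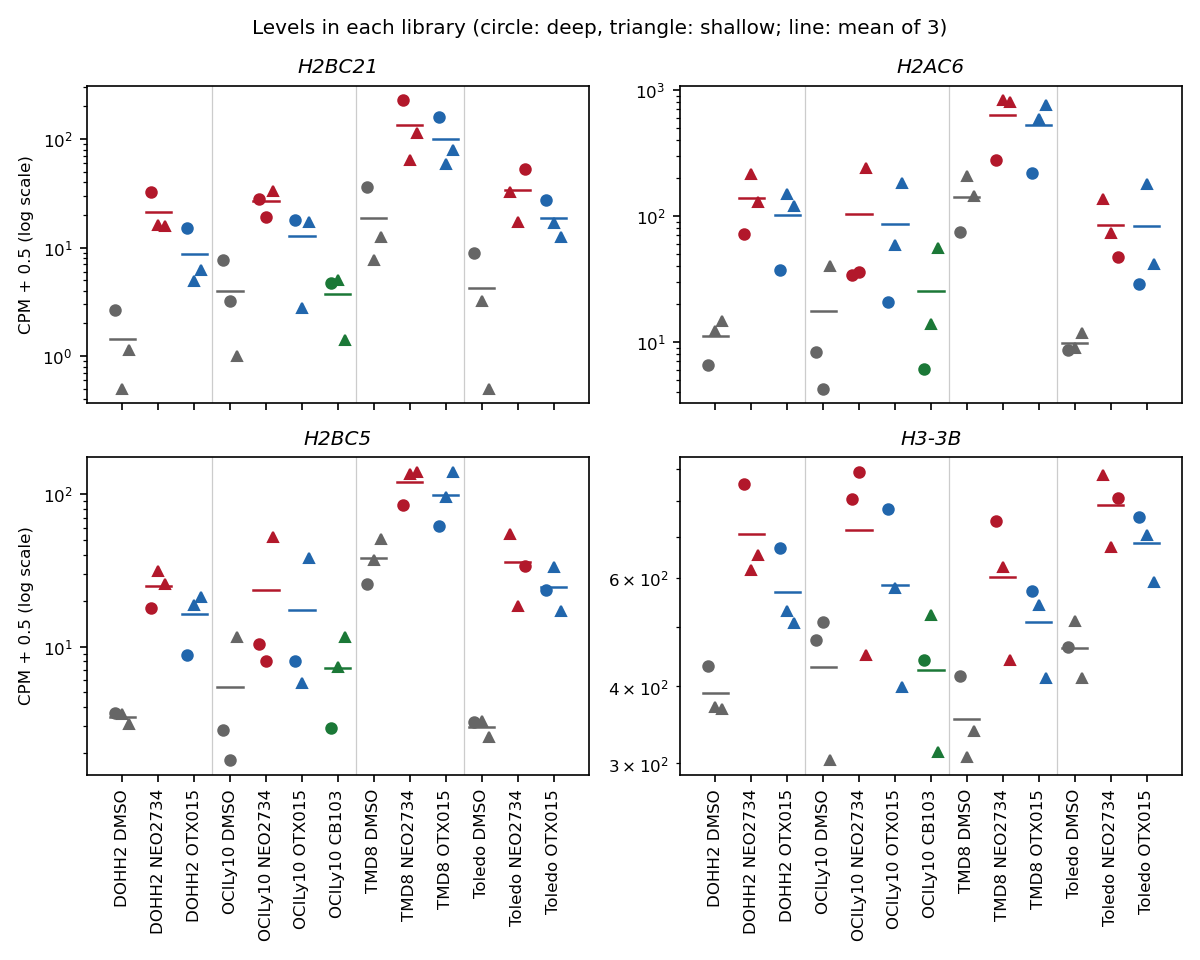
Level of H2BC21, H2AC6, H2BC5 and H3-3B in each of the 39 libraries (CPM + 0.5, log axis). Circles are deep and triangles shallow libraries, and lines are the mean of 3. By the means of log2(CPM + 0.5), H2AC6 is lower in deep than in shallow libraries in 13 of 13 groups, and H3-3B higher in 13 of 13. Single H3-3B libraries can go the other way, as in Toledo DMSO (463 CPM deep, 510 in shallow replicate 2). The NEO2734 libraries of H2BC21 lie above the DMSO libraries of their line.

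With OTX015, 11 of the 20 tested clustered genes and the same 2 variants, H1-10 and H3-3B, were higher in the mean over the lines and 0 were lower, where 5.53% of all genes tested were called higher and 6.06% lower. This comparison shares its DMSO libraries with that of NEO2734, so the values are given side by side and no likeness is drawn from them. The median log2 change was 1.65 over the clustered genes, 0.10 over the variants and -0.03 over all genes. H2AC6 rose by 2.70 ± 0.49 (adjusted p = 0.000457), H2BC4 by 2.46 ± 0.47, H2BC5 by 2.23 ± 0.38, H2BC21 by 2.23 ± 0.41, H2BC11 by 2.16 ± 0.42 and H2BC18 by 2.14 ± 0.44. H3C10 rose by 1.61 ± 0.37, H2AC11 by 1.46 ± 0.36 and H4C16 by 1.45 ± 0.32. H1-10 rose by 1.96 ± 0.47 (adjusted p = 0.00542) and H3-3B by 0.52 ± 0.13 (adjusted p = 0.00817).

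H2BC21 held 14.6, 4.46 and 5.73 CPM with OTX015 in DOHH2, 17.6, 2.26 and 16.7 in OCILy10, 159, 58.1 and 79.5 in TMD8 and 26.9, 16.3 and 11.9 in Toledo. OCILy10 overlapped with DMSO and the other lines did not. H2AC6 held 36.4, 148 and 120 CPM in DOHH2, 20.3, 58.1 and 181 in OCILy10, 218, 585 and 764 in TMD8 and 28.6, 180 and 40.9 in Toledo, again with overlap in OCILy10 alone. H4C8 (1.70 ± 0.52, adjusted p = 0.0311) and H1-2 (1.12 ± 0.37, adjusted p = 0.0490) were close to the threshold. H4C8 lost its call without any 1 of 5 libraries and was at 0.54 without Toledo OTX015 replicate 1, and H1-2 lost its call without any 1 of 18 libraries and without the 3 that hold genes of another line, which left 12 histone genes called. H2BC8 (1.81 ± 0.62, adjusted p = 0.0562) and H3C8 (fitted 1.84, adjusted p = 0.0815) did not pass. H3C4 (1.39 ± 0.58, adjusted p = 0.129) and H4C9 (2.04 ± 0.89, adjusted p = 0.147) did not pass either, and did under the replicate block (adjusted p = 0.0465 and 0.00496). H3C4 was at 2.45 and called without DOHH2 DMSO replicate 1 and at 0.35 without Toledo OTX015 replicate 1, and H4C9 at 2.86 and called without OCILy10 DMSO replicate 3. Without DOHH2 DMSO replicate 1 the OTX015 changes of H2AC11, H2BC18 and H3C10 were 2.72, 3.26 and 2.62. With the shallow libraries alone H2BC21 was at 3.36, with the deep ones H2AC6 was at 1.93, and the deep libraries alone called 6 histone genes, with H2BC18, H3C10 and H3-3B among those no longer called.

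NEO2734 and OTX015 were then set against each other in the mean over the lines. No histone gene passed in either direction, where 0% of all genes were called higher with NEO2734 and 0.0312% lower. Over the 27 genes with an estimate, NEO2734 was above OTX015 in 23. The share of all genes in that direction is not given and the genes share their libraries, so this count is a description. The median difference over all genes tested was -0.003. Of the 27 genes 1 had an unadjusted p under 0.05 with edgeR (DESeq2 also called 0). That gene was H2BC21, with a difference of 0.91 ± 0.38 (95% interval 0.14 to 1.68, unadjusted p = 0.0226, adjusted p = 1.00). H3-3B differed by 0.26 ± 0.13 (interval -0.0021 to 0.53) and H2BC18 by 0.63 ± 0.40 (-0.19 to 1.46). The intervals were 0.27 to 1.61 wide on either side, so a difference of up to about that size was not detectable for the gene concerned, and the 2 compounds are not shown to act alike.

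Within single lines the spread of 3 libraries left fewer calls. Here and for OTX015 below, shares of all genes belong to the main fit. Counts under alternatives or at an unadjusted p have none beside them. With NEO2734 in DOHH2, 8 histone genes were higher and 0 lower (1.43% and 1.47% of all genes tested): H2BC21 by 3.99 ± 0.93, H2BC18 by 3.80 ± 0.95, H2AC6 by 3.77 ± 1.03, H2BC4 by 3.69 ± 0.94, H2BC11 by 3.46 ± 0.84, H2AC11 by 3.02 ± 0.74, H2BC5 by 3.01 ± 0.80 and H3C10 by 2.97 ± 0.82. The count was 0 without DOHH2 DMSO replicate 2 or replicate 3, 3 or 4 without any 1 NEO2734 library, 5 without the 3 libraries that hold genes of another line, and 14 with depth as a term, an alternative chosen after the data were seen. In TMD8, H2BC18 (3.03 ± 0.83) and H4C16 (2.46 ± 0.61) were higher and 0 lower (0.726% and 1.44% of all genes), with 13 called under the replicate block. The TMD8 count was 0 without DMSO replicate 2, DMSO replicate 3, NEO2734 replicate 1 or NEO2734 replicate 2, and 1 without either of the other libraries. In Toledo, H2BC5 (3.76 ± 0.81) and H2BC21 (2.94 ± 0.82) were higher and 0 lower (1.27% and 4.2% of all genes), 0 were called without Toledo DMSO replicate 2, the library that holds OCILy10 genes, and 1 without DMSO replicate 3 or any 1 NEO2734 library. In OCILy10 the count was 0 with edgeR (0.656% of all genes higher, 0.359% lower), 9 at an unadjusted p under 0.05, 2 with DESeq2 and 5 under the replicate block.

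With OTX015 within lines, H2BC5 in Toledo was the 1 gene called (3.20 ± 0.80; 0.499% of all genes were called higher, 2.59% lower), and 0 were called without Toledo DMSO replicate 2 or without any 1 of the 3 Toledo OTX015 libraries. The count was 0 in DOHH2 (0.0702% of all genes higher, 0.0546% lower; 10 at an unadjusted p under 0.05, 3 with DESeq2, 5 under the replicate block), 0 in TMD8 (0.0858% and 0.304%; 14 unadjusted, 4 with DESeq2, 7 under the replicate block) and 0 in OCILy10 (0.039% and 0.0312%; 4 unadjusted, 0 with DESeq2). H2AJ in Toledo with OTX015 was at -3.95 ± 1.17 (adjusted p = 0.0591). It was called lower with DESeq2 (adjusted p = 0.0257), with depth as a term and with the other scaling, and was at -0.66 (adjusted p = 1.00) without Toledo DMSO replicate 2.

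Groups whose libraries did not overlap give a view that needs no model. With NEO2734 all 3 libraries lay above all 3 DMSO libraries for 12 clustered and 2 variant genes in DOHH2 (8.64% of all genes tested), 7 and 1 in OCILy10 (9.77%), 14 and 2 in TMD8 (7.34%) and 8 and 2 in Toledo (6.54%). With OTX015 the counts were 8 and 2 in DOHH2 (7.01%), 2 and 0 in OCILy10 (5.66%), 12 and 1 in TMD8 (4.96%) and 7 and 2 in Toledo (5.58%). For 0 histone genes did all 3 treated libraries lie below all 3 DMSO libraries, where 9.73%, 10.2%, 10.6% and 6.57% of all genes did with NEO2734 and 6.52%, 6.97%, 7.9% and 4.82% with OTX015, in the same order of lines. H2BC11, H2BC18, H2BC21, H3C10 and H1-10 were apart in all 4 lines with NEO2734. With OTX015 0 histone genes were apart in all 4 lines and 8 were in 3 lines. The shares of all genes above are for single lines, and none is given for 3 or 4 lines together, so these counts are descriptions.

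**Figure D4:**
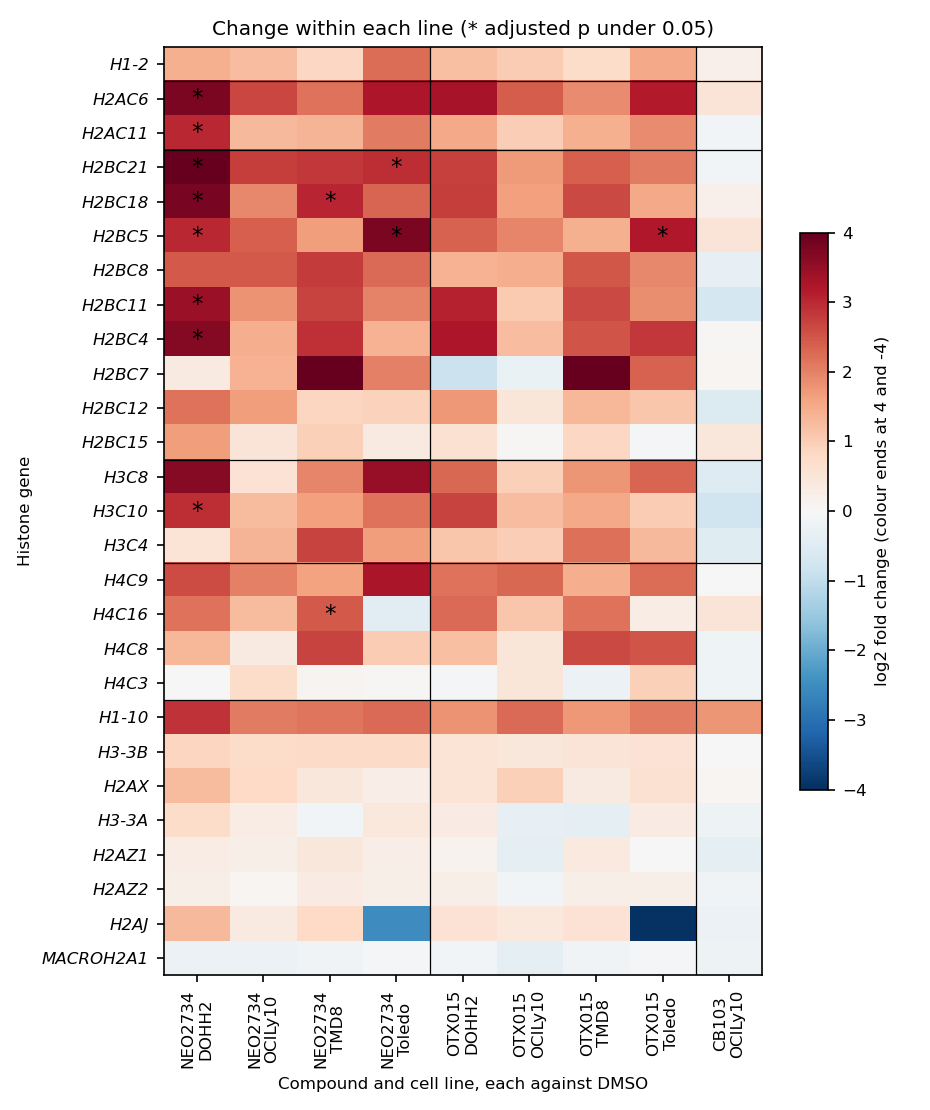
Log2 fold change of each tested histone gene (rows, by class) within each line for NEO2734 and OTX015 and in OCILy10 for CB103, each against DMSO. Stars mark an adjusted p under 0.05, of which there are 8 in DOHH2 with NEO2734. The dark cells of H2BC7 in TMD8 rest on 1 DMSO count, and the blue cells of H2AJ in Toledo on DMSO replicate 2, which held 7.10 CPM against 0.316 and 0 CPM in the other DMSO libraries.

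Whether the lines differed in their response was tested with an F-test over the 4 lines. No histone gene passed for NEO2734 (0.0156% of all genes did; 2 at an unadjusted p under 0.05) or for OTX015 (0% of all genes; 2 unadjusted). The lowest p for NEO2734 was that of H4C16 (unadjusted p = 0.0272, adjusted p = 0.627), followed by H2AJ and H3C8. For OTX015 it was that of H2AJ (unadjusted p = 0.0141, adjusted p = 1.00), followed by H2BC7 and H4C16. DESeq2 was not run for these F-tests. The within-line changes of H4C16 with NEO2734 were 2.16 ± 0.66 in DOHH2, 1.27 ± 0.60 in OCILy10, 2.46 ± 0.61 in TMD8 and -0.41 ± 0.72 in Toledo. Without Toledo DMSO replicate 2, the library that holds OCILy10 genes, the Toledo value was 0.80 ± 0.86.

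Differences between the lines in DMSO were tested with an F-test. It called 13 histone genes, 11 of the 20 tested clustered genes and 2 of the 8 variants. That is 46.4% of those tested, near the 48.1% of all genes called. Without Toledo DMSO replicate 2 the count was 17. TMD8 had the highest mean of the 4 lines for 20 of the 27 clustered genes, 9 of them with its 3 libraries above all others, and for 1 of the 9 variants, H2AJ. The share of all genes that were highest in TMD8 is not given, so these counts are descriptions. The lowest clustered sum of TMD8 was 365 CPM, against a highest of 90.5 CPM in the other lines' DMSO libraries. H1-2 held 301, 47.1 and 175 CPM in TMD8, 37.5, 16.7 and 8.41 in DOHH2, 15.6, 6.48 and 6.53 in OCILy10 and 4.26, 6.28 and 5.12 in Toledo (adjusted p = 5.16e-06). TMD8 lay above and Toledo below the other lines, and the libraries of DOHH2 and OCILy10 overlapped. H2BC5 (37.5 ± 12.6 CPM in TMD8, next 4.89 ± 5.35 in OCILy10; adjusted p = 5.29e-05), H3C8 (adjusted p = 0.000153), H3C10 (adjusted p = 0.000174), H2AC11 (adjusted p = 0.000459) and H2AC6 (142 ± 66.9 CPM in TMD8, next 17.1 ± 19.6 in OCILy10; adjusted p = 0.000691) had the same line highest. The variants H2AZ2 and H2AJ were called as well. H2AZ2 was highest in Toledo (254 ± 97.9 CPM) and lowest in TMD8 (109 ± 36.1 CPM; adjusted p = 0.0106). Its Toledo DMSO libraries held 332, 145 and 286 CPM, with the 145 in replicate 2, the library that holds OCILy10 genes.

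Per kilobase of exon, H1-2 was the highest histone gene in TMD8 with DMSO (272 CPM per kilobase) and H2AZ1 the next (109), while H2AZ1 was highest in DOHH2 (122), OCILy10 (237) and Toledo (190). H2AC6 stood at 85.1 and H2BC5 at 43.0 CPM per kilobase in TMD8. H3-3B varied little on this scale, from 57.6 in TMD8 to 75.3 in Toledo.

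A pair of genes had its counts in Toledo. H2AC25 and H2BC26 on chromosome 1 are transcribed away from each other with 233 bases between them. H2AC25 held 2.68, 0.819 and 1.02 CPM with DMSO, 20.6, 5.63 and 6.59 with NEO2734 and 9.22, 5.22 and 1.70 with OTX015 in Toledo. It held 0 counts in all 27 DMSO, NEO2734 and OTX015 libraries of the other lines. The NEO2734 libraries of Toledo lay above its DMSO libraries, but the change did not pass (2.74 ± 1.04, adjusted p = 0.176). H2BC26 held 0.316, 0.273 and 0 CPM with DMSO and 4.21, 3.38 and 3.40 with NEO2734, on 3 and 48 counts, and was below the filter. Outside Toledo both had counts in 1 library, OCILy10 CB103 replicate 2, which holds Toledo genes.

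With CB103 in OCILy10 no histone gene passed the test in either direction. With edgeR 0 histone genes passed (0% of all genes tested), 0 had an unadjusted p under 0.05, and DESeq2 called 0. The lowest p were those of H1-10 (1.78 ± 0.95, unadjusted p = 0.0698), H2AC25 (0 counts with DMSO and 1 with CB103, so no fold is given) and H3C10 (-0.80 ± 0.75), none of which passed. H1-10 held 4.31, 16.4 and 1.84 CPM with CB103, and its highest value came from replicate 2, which holds Toledo genes. No histone gene had its CB103 libraries all above or all below the DMSO libraries (1.11% and 1.31% of all genes did).

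Read depth moved with the level of several histone genes within every group. On log2(CPM + 0.5), the deep minus the shallow libraries of a group, averaged over the 13 groups, was above 0 for 24 of the 28 tested genes and below 0 for 4. Over all genes tested the median was 0.07, with 5th and 95th percentiles of -2.00 and 1.13. H2AX was at 2.36, and the mean of its deep libraries on this scale was above that of its shallow ones in 13 of 13 groups. Its median was 42.6 CPM in deep and 6.99 in shallow libraries. Single libraries could go the other way: in Toledo DMSO H2AX held 27.9 CPM in the deep library and 30.6 in shallow replicate 2. H4C3 (1.79), H2BC8 (1.63), H2BC12 (1.55), H2AZ1 (1.45), H2BC21 (1.36) and H3-3A (1.17) also lay above the 95th percentile. H4C9 (-2.87) and H2AC6 (-1.65) had a lower mean in the deep than in the shallow libraries of all 13 groups. Their medians were 0.517 against 7.88 CPM and 33.8 against 132 CPM. The NEO2734 mean contrast called 12 histone genes with the deep and 13 with the shallow libraries alone, against 15 in all. The shares of all genes called with either set alone are not given, so these counts are descriptions. What else set the deep libraries apart was not tested.

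**Figure D5:**
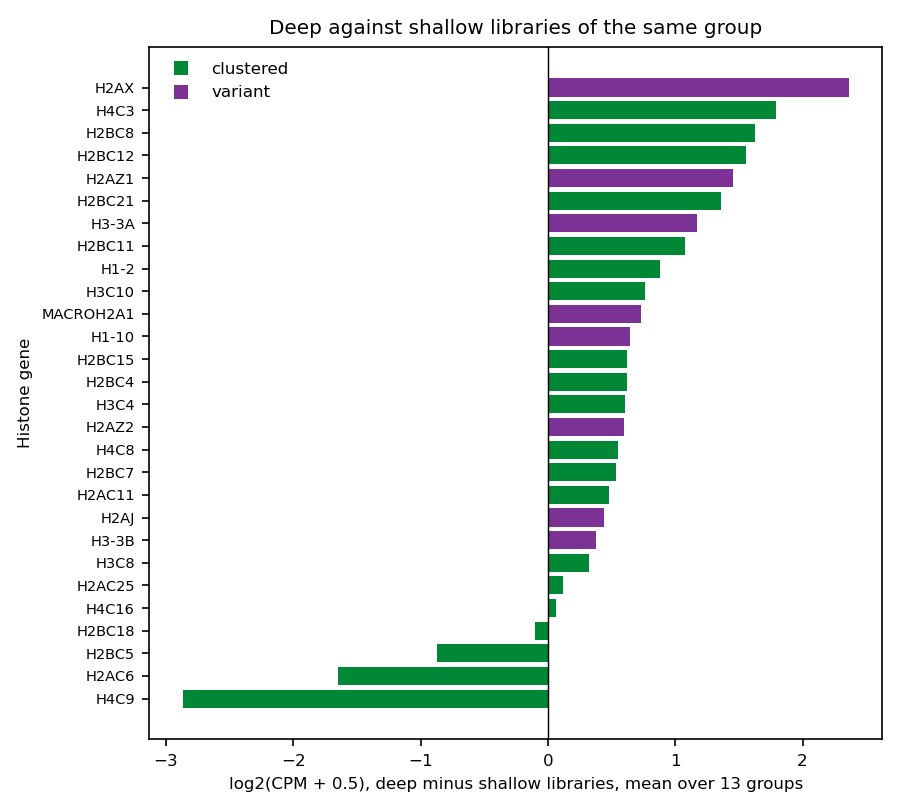
Difference between deep and shallow libraries of the same group on log2(CPM + 0.5), averaged over the 13 groups, for the 28 tested histone genes (green clustered, purple variant). H2AX lies farthest right (2.36) and H4C9 farthest left (-2.87).

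The promoters of some of these genes can be read beside the values. RefSeq promoters (GRCh38.p14, 250 bases before to 50 after the start) were matched for 25 of the 27 clustered genes. TATAAA, the core of a TATA box, was found on either strand in 14 of these 25 (56.0%) and in 11.5% of all 35116 promoters. CCAAT was found in 22 (88.0%) and in 34.6% of all. The octamer ATGCAAAT, bound by the POU factors OCT1 and OCT2 and known from H2B and immunoglobulin promoters, was found in 12 (48.0%) and in 1.77% of all. It was in 8 of 11 H2B and 3 of 4 H2A promoters, and in 1 of the 8 variant promoters matched, that of H3-3B. None of the 3 motifs contains another, though their ends can share letters, and a match describes the sequence only. The promoter of H2AC6 (chr6:26123922-26124221, plus strand) overlaps that of H2BC4, which is read the other way with 218 bases between the genes, and both genes rose. Those of H2BC21 (chr1:149886633-149886932, minus strand) and H3-3B (chr17:75779730-75780029, minus strand) belong to the clustered and the variant gene with the lowest p with NEO2734. The RefSeq start of H3-3B lies inside the GENCODE gene. Capitals mark the 3 motifs on either strand.
H2AC6: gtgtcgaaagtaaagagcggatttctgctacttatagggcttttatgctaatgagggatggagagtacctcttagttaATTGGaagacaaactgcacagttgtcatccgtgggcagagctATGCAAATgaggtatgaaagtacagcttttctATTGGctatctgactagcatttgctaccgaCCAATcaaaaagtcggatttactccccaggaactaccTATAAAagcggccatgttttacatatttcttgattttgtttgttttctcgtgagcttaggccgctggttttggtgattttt
H2BC21: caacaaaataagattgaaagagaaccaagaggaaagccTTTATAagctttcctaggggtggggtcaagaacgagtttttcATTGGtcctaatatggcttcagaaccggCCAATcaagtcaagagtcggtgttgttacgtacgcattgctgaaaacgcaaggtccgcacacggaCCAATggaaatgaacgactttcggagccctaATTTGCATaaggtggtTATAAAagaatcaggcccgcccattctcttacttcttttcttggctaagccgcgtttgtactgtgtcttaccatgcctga
H3-3B: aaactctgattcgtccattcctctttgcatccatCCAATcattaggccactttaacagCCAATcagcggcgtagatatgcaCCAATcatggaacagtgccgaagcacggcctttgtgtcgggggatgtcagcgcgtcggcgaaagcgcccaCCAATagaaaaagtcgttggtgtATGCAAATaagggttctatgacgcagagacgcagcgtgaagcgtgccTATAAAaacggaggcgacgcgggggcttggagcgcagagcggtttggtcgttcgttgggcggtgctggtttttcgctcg
Each of the 3 holds all 3 motifs, with the octamer once in each, TATAAA once in H2AC6 and H3-3B and 2 times in H2BC21, and CCAAT 3 times in H2AC6 and H2BC21 and 4 times in H3-3B. Other genes that rose lack some of them: the promoter of H2BC5 holds 0 octamers, and that of H1-10 holds 0 octamers and 0 CCAAT.

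The genes that make, carry and load histones were read from a list of 34, of which 33 were tested. With NEO2734 2 were higher and 1 lower (9.29% and 11.2% of all genes), and the median change was -0.01. CASP8AP2 (FLASH), which takes part in the 3′ end processing of histone mRNA, rose by 0.41 ± 0.12 (adjusted p = 0.0176), UBN2, of the HIRA complex that loads H3.3, rose by 0.51 ± 0.13 (adjusted p = 0.00469), and ANP32E, a chaperone that removes H2A.Z, changed by -0.71 ± 0.20 (adjusted p = 0.0124). With OTX015 UBN2 (0.42 ± 0.13) and UBN1 (0.44 ± 0.14) were higher and 0 lower (median 0.09; 5.53% and 6.06% of all genes). SLBP was at 0.25 ± 0.21 (adjusted p = 0.496) with NEO2734, and NPAT, the activator of the clustered genes in S phase, at 0.30 ± 0.25 (adjusted p = 0.486). Of 26 S phase genes 0 rose and 1, the helicase subunit gene MCM7, fell by 0.48 ± 0.16 on the log2 scale with NEO2734 (median -0.09). With OTX015 1, RRM2, rose by 0.51 ± 0.17 and 0 fell (median -0.11).

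The genes most like H2BC21 were sought over the 13 group means of log2 CPM with each line's mean subtracted, points that share the treatments and libraries. They were NXF1, an mRNA export receptor gene (Pearson r = 0.995), TMEM59 (0.992), DLGAP4 (0.986), ZSWIM6 (0.984) and SERTAD1 (0.983). Among the histone genes H3-3B (0.993), H2AC6 (0.971) and H2BC5 (0.964) came closest and MACROH2A1 (-0.651) was at the other end. The values describe these 13 means and carry no test.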

How the data were processed

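The authors deposited counts per gene, whole numbers not normalized, for 39 libraries, in 2 tables of 15808 versioned Ensembl gene IDs. Of the 39 columns 38 were equal in both, and that of OCILy10 CB103 replicate 1 differed (11430777 counts against 5474462), so the raw matrix served throughout and the other column was tried as an alternative. Per the submitters' processing notes, STAR, edgeR and hg38 were used. The sources used here name no versions, counting program, annotation or strandedness. Part of the shared label text names other drugs and a longer time than the samples' own labels, which were used. Symbols were matched by gene ID for 15590 genes and not for 218, and 0 columns were left unmapped. Totals of 1000281 to 11668542 counts limit the precision for genes of a few CPM.

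Counts were modelled with edgeR 4.0.16 under R 4.3.3 (quasi-likelihood F-test, TMM, filterByExpr by group with a minimum count of 10, a coefficient for each of 13 groups, 26 residual degrees of freedom) on all genes, and p-values were adjusted over all 12814 tested. Each ± after a log2 change is its SE, the log2 change over the root of F. An SE from the fit's information matrix was 0.94 to 1.14 times as large for the averaged contrasts, except for H2AJ with NEO2734 (2.16 times), for which it is printed, and each ± after CPM is an SD. Averaged contrasts are plain means over the 4 lines and speak of these lines only. The scripts were tested on simulated counts. Pairing by replicate number was checked by correlating the libraries' deviations from their group mean. Every same-numbered pair was above 0.1 for NEO2734 in DOHH2 (0.26 to 0.87), OCILy10 (0.78 to 0.88) and TMD8 (0.36 to 0.85). The same held for OTX015 in DOHH2 (0.51 to 0.90) and TMD8 (0.32 to 0.89), and not for the other contrasts. Differently numbered shallow libraries correlated too, at 0.44 and 0.60 in DOHH2 and 0.39 and 0.46 in TMD8 with NEO2734. With OTX015 they were at 0.57 and 0.57 in DOHH2 and 0.47 and 0.39 in TMD8. In DOHH2 and TMD8 the check therefore cannot tell pairing from depth. Any pairing is read from the data, and replicate 1 was a deep library in every group but Toledo NEO2734.

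The members and lists were chosen with earlier results of these data known. Named with values were, in each clustered class, up to 3 tested genes of lowest p with NEO2734 and 2 with OTX015, every tested variant (the 6 of lowest p by library or range), every gene called within a line, and for comparisons without calls the 3 lowest p. Alternatives were DESeq2-style scaling, no filter, the replicate block, deep or shallow libraries alone, leaving out 3 libraries or each library, DESeq2 1.42.0 and, added later, depth as a term. Stem-loops were sought in GENCODE 29 transcripts, and 50-base stretches shared with other genes were counted there. The values of 1 untested variant gene and of the B cell marker list are not reported here.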

Additional observations from a re-analysis of the deposited data

How the results depend on the processing

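Over the 38 pairs of a named gene and an averaged contrast, no called change reversed under any alternative run. Reversal was not checked gene by gene for other genes or within lines. Among values that were not called, H2AX with OTX015 (0.61) was at -0.0011 without DOHH2 OTX015 replicate 1, and H3-3A with OTX015 (-0.01) ranged from -0.24 to 0.20 leaving out a library. The counts of histone genes called in the NEO2734 mean (12 to 19) stayed within 1.5 times of 15 in all alternatives, and those of the OTX015 mean (9 to 17, against 13) in all but the deep libraries alone (6). Leave-one-out counts were 14 to 18 and 11 to 15. Within lines the counts moved more. For NEO2734 in DOHH2 (8) they were 5 with shallow libraries, 0 with deep, 5 without the 3 libraries that hold genes of another line and 14 with depth as a term (0 to 6 leaving out a library). In OCILy10 (0) they were 1 with deep libraries, 2 with DESeq2 and 6 with depth as a term (0 to 0). In TMD8 (2) they were 1 without the filter, 1 with shallow libraries, 0 with deep, 7 with DESeq2 and 16 with depth as a term (0 to 1). In Toledo (2) they were 4 with shallow libraries, 0 with deep, 0 without the 3 libraries, 5 with DESeq2 and 11 with depth as a term (0 to 3). For OTX015 they were 3 with DESeq2 and 7 with depth as a term in DOHH2, 4 and 11 in TMD8, and in Toledo (1) 2 with the other scaling, of which 1 was H2AJ called lower, 2 with shallow libraries, 0 with deep, 0 without the 3 libraries, 3 with DESeq2 and 8 with depth as a term (0 to 2). Leaving out a library gave 0 in the other 3 lines with OTX015, for NEO2734 against OTX015, for CB103 and for both response tests. The DMSO line differences (13) were 22 with deep libraries and 23 with depth as a term (12 to 17). The share of all genes called under each alternative is not given beside these counts, which therefore describe the histone genes only. Why these counts moved was not tested, and deep libraries alone leave few residual degrees of freedom.

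The replicate block gave 5 calls for NEO2734 in OCILy10, 13 in TMD8 and 8 in Toledo, 5 for OTX015 in DOHH2, 2 in OCILy10, 7 in TMD8 and 2 in Toledo, and 20 for the DMSO line differences. Under the block H3C4 and H4C9 passed in both averaged contrasts, and it changed no other call of a named gene. Of 1216 values of single genes, 1146 kept their side of the threshold, 41 lost and 29 gained a call.

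Depth limits what can be read of the 8 untested genes and of folds from DMSO groups with 0 to 3 counts.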

Other observations

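The entries left out by the choice of protein-coding genes gave values of their own. The pseudogene H2BC20P was at 2.12 ± 0.42 with NEO2734 (adjusted p = 0.000426) and 1.82 ± 0.42 with OTX015 (adjusted p = 0.00417) in the mean over the lines. The antisense RNA H1-10-AS1, which overlaps H1-10, was at 2.63 ± 0.87 with NEO2734 (adjusted p = 0.0301) and 1.78 ± 0.90 with OTX015 (adjusted p = 0.230). H2AZ1-DT was at 0.56 ± 1.22 (adjusted p = 0.859) with NEO2734. HEXIM1, a gene known to rise with BET inhibitors, was at 2.10 ± 0.24 with NEO2734 and 1.85 ± 0.24 with OTX015 (adjusted p = 2.67e-07 and 8.12e-06). MYC, read beside it, was at -1.38 ± 0.22 and -0.77 ± 0.22 (adjusted p = 4.39e-05 and 0.0196). Within lines MYC was called lower with NEO2734 in DOHH2 and TMD8, and with OTX015 in TMD8 alone. In Toledo MYC was at -0.06 ± 0.44 with NEO2734 and 0.34 ± 0.44 with OTX015.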
